A study of Homo sapiens with 6 samples.

Results

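The Rab genes encode small GTPases of the Ras superfamily. A Rab protein carries a lipid tail, sits on the membrane of one organelle or vesicle type when it holds GTP, and recruits effectors such as tethers and motor adaptors. Exchange factors load it with GTP, GTPase activating proteins switch it off, and GDP dissociation inhibitors carry it through the cytosol. Many Rab-bearing vesicles travel along microtubules on kinesin and dynein. Members were taken by symbol, as every row of the count table named RAB followed by a digit and an optional letter, which gave 62 Rab GTPase genes among 23710 rows. An antisense RNA (RAB11B-AS1), a readthrough transcript (RAB4B-EGLN2) and a pseudogene (RAB9BP1) begin the same way but encode no Rab GTPase and were kept apart, and 9 rows of Rab-interacting or GTPase activating proteins were left out.

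The RNA came from THP-1, a line grown from a human monocytic leukaemia. The cells were kept for 6 h in 10 uM mebendazole or in its vehicle DMSO, with 3 libraries per group and numbered sample pairs. Mebendazole, a benzimidazole used against worms, binds tubulin and blocks microtubule growth, and the comparison asked which genes differ between drug and vehicle in this line. The line is a single leukaemia-derived culture, and no label tells if a pair was a culture or a day of its own, so the p-values measure a spread between samples that may be technical.

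Library totals were 15476356, 14053880 and 13892038 counts with mebendazole and 14060591, 13420558 and 15727667 counts with DMSO. Levels are given as CPM, the usual depth-scaled counts, with library sizes adjusted by TMM, and as mean ± SD of 3 libraries. They are relative to all RNA of the library, so fewer cells expressing a gene and less of its RNA per cell cannot be told apart. Log2 fold changes are mebendazole over DMSO from edgeR's quasi-likelihood test with the pair as a block, followed by the SE over the 3 pairs. Genes counted as called where the p, adjusted over all 13591 genes tested by Benjamini-Hochberg, was under 0.05. Of the 10 monocyte markers, 2 were called higher, 5 lower and 3 not, with a median log2 fold change of -0.41. SPI1 was higher (638 CPM with mebendazole against 323 CPM with DMSO, log2 fold change 0.98), as was CD68 by less (443 CPM with mebendazole against 413 CPM with DMSO). CD33 (26.3 CPM with mebendazole against 89.2 CPM with DMSO), CD14 (9.38 CPM with mebendazole against 19.6 CPM with DMSO), LYZ, CSF1R and ITGAM were lower. ELANE (633 CPM with mebendazole against 658 CPM with DMSO), MPO (2.09 CPM with mebendazole against 2.75 CPM with DMSO) and CD4 were not called. Together the 10 summed to 2649 ± 50.5 CPM with mebendazole and 2672 ± 77.8 CPM with DMSO. The 6 lymphocyte markers summed to 1.35 ± 0.230 CPM with mebendazole and 1.198 ± 0.123 CPM with DMSO, and CD3D, CD3E and CD3G had 0 reads with mebendazole. The 4 erythroid and megakaryocyte markers summed to 1.10 ± 0.299 CPM with mebendazole and 0.887 ± 0.241 CPM with DMSO. The 5 epithelial, stromal and endothelial markers summed to 138 ± 10.96 CPM with mebendazole and 96.3 ± 5.68 CPM with DMSO, nearly all of it PECAM1, which monocytes also express. Of these 5 only PECAM1 was called, as higher. The part of any of these markers in the Rab results was not tested.

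Of the 62 Rab genes, 50 had enough reads to be tested, 11 had reads but too few, and RAB19 had none. With mebendazole 32 of the 50 rose, 12 fell and 6 were not called. Most genes tested were called in these libraries, whose spread may be technical, so these counts have to be read against that share. Of the 13591 genes, 82.3% passed in one direction or the other, with 40.6% higher and 41.7% lower. Among the tested Rab genes 88% were called, 64% higher and 24% lower, and their median log2 fold change was 0.40, against -0.03 over all genes tested. At 2-fold or more, 10 Rab genes were higher and 7 lower, where 15.5% of all genes were higher and 14.8% lower by that much. This lead of rises depends on the scaling. With library totals 13 Rab genes changed by 2-fold or more, instead of 17. RAB5B (log2 fold change 0.97), RAB23 (0.96), RAB2B (0.91) and RAB5A (0.84) then rose by less than 2-fold. The 3 mebendazole libraries lay wholly above or wholly below the 3 DMSO libraries for 45 of the 50, a share of 90%, against 82.4% of all genes. With library totals in place of TMM scaling, the median over all genes moved to -0.27, the Rab median to 0.15 and the split of Rab genes to 28 higher and 17 lower, so 62.2% of the called Rab genes were higher instead of 72.7% (all genes, 36.4% instead of 49.3%).

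**Figure D1:**
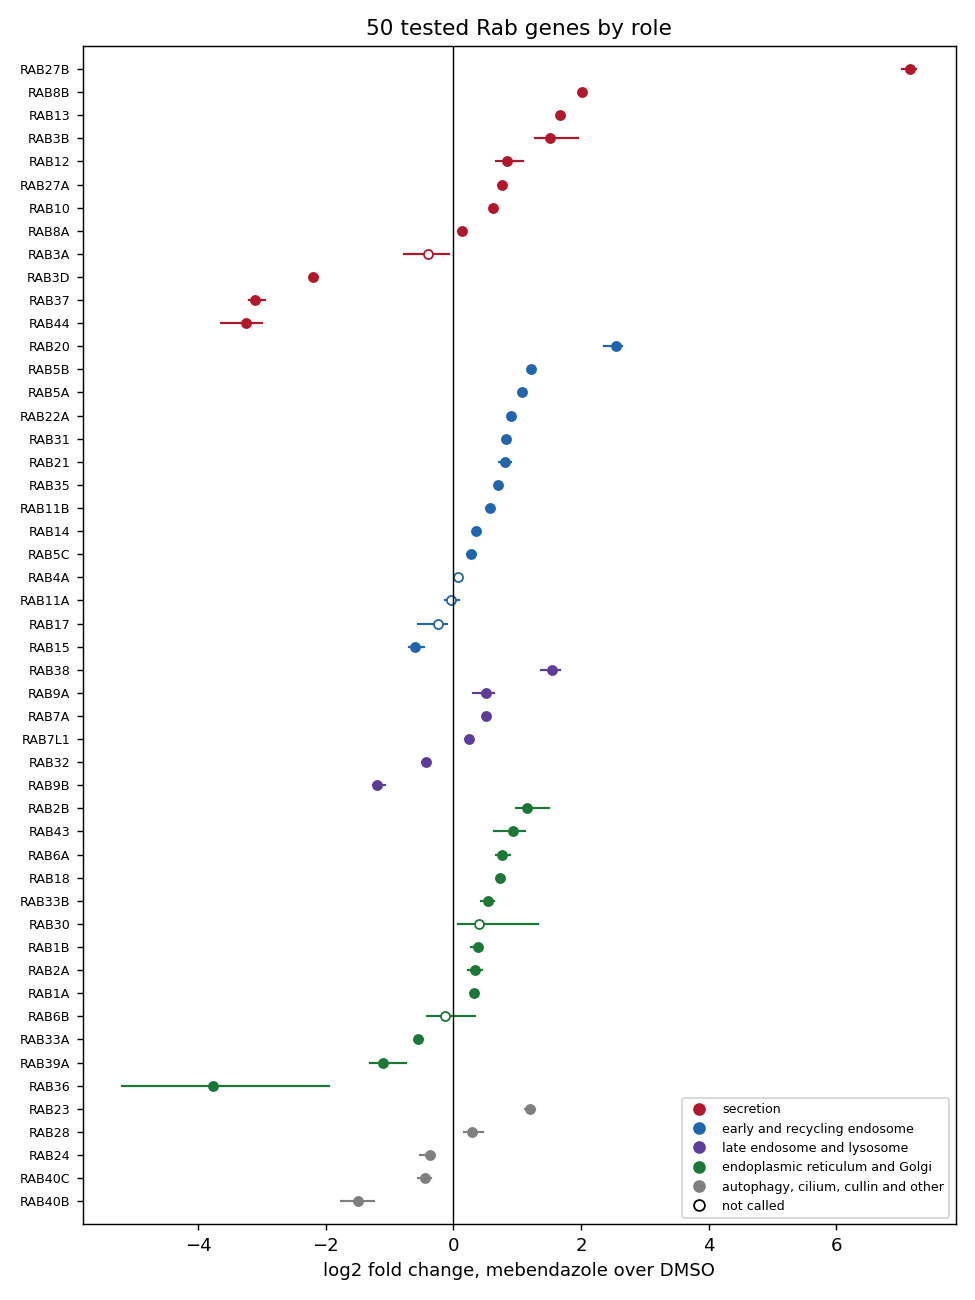
Log2 fold change, mebendazole over DMSO, of the 50 tested Rab genes, ordered within role groups. Points are the fitted values, bars run from the lowest to the highest of the 3 pairs, and open symbols mark the 6 genes not called. Apart from RAB27B at 7.15, RAB20 at 2.55 and the falls of RAB36, RAB44, RAB37 and RAB3D, the genes lie between RAB40B at -1.49 and RAB8B at 2.02.

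The largest rise was that of RAB27B, a Rab of secretory granules and exosome release. It had 224, 242 and 235 CPM in the mebendazole libraries, against 1.58, 1.56 and 1.76 CPM in the DMSO libraries. It was nearly silent in every DMSO library and well expressed in every mebendazole library, with no overlap. The log2 fold change was 7.15 ± 0.06 (edgeR, adjusted p = 5.2e-66). In reads, 9294 with mebendazole stood against 77 with DMSO, a ratio of 142 with an exact 95% counting interval of 114 to 180 that covers counting error only. RAB27B made up 4.79% ± 0.275 of the summed Rab CPM with mebendazole and 0.0510% ± 0.00313 with DMSO.

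RAB27A, its close relative on lysosome-related organelles and melanosomes, rose far less. It had 132, 128 and 137 CPM with mebendazole, against 78.2, 78.6 and 77.6 CPM with DMSO. The groups did not overlap, and the log2 fold change was 0.76 ± 0.03 (edgeR, adjusted p = 1.7e-25). The RAB27A to RAB27B count ratio was 0.531 to 0.592 over the mebendazole libraries, against 44 to 50.4 over the DMSO libraries. Per kb of exon RAB27A stayed the higher of the pair in both groups, at 35.9 CPM per kb against 32.1 CPM per kb for RAB27B with mebendazole and 21.1 CPM per kb against 0.224 CPM per kb with DMSO. The coding sequences are 68.7% identical over 651 aligned bases. They are 657 bases (RAB27B) and 666 bases (RAB27A) long, against 7281 and 3699 bases of exon, and the rest was not compared. How far reads of the 2 genes can be told apart was not tested. The first 150 coding bases of both genes are shown as an example of how the sequences differ. Capitals mark the 42 bases that differ between them (GENCODE v29 transcripts).
RAB27B: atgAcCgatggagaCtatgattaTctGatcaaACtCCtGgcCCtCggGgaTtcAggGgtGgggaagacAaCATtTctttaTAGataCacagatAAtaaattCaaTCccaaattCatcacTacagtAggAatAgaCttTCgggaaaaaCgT
RAB27A: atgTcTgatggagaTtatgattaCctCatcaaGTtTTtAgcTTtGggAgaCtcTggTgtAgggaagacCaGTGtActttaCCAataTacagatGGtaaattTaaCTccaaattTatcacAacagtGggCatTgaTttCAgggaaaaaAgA
RAB27B lies on chromosome 18 and RAB27A on chromosome 15, and the differing bases are spread over the whole stretch.

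A plot of selected, strongly changed members shows how tightly their libraries lay beside the distance between groups. It leaves out RAB36, which had the largest fitted fall (-3.76) but widely spread pairs, from -5.18 to -1.95. RAB38 (1.54) and RAB3B (1.52) are not shown either.

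**Figure D2:**
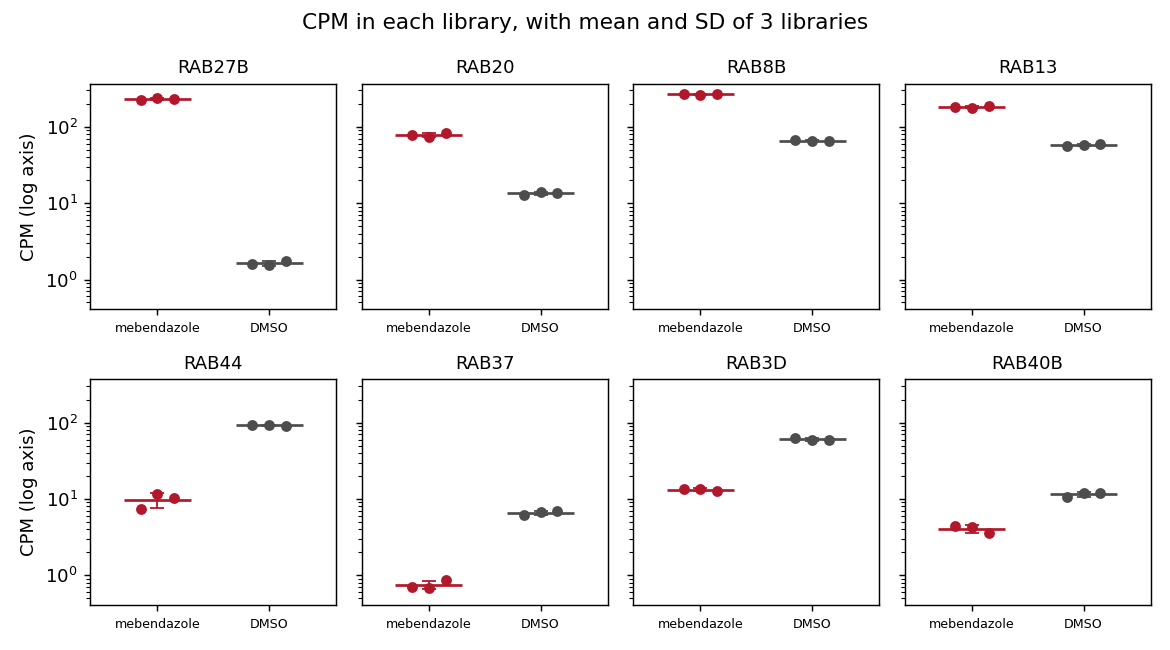
CPM (log axis) of selected, strongly changed Rab genes in each library, mebendazole left of DMSO, 3 points per group with a line at the mean and bars of 1 SD. RAB27B averaged 233 CPM with mebendazole against 1.63 CPM with DMSO and RAB44 9.78 CPM with mebendazole against 92.5 CPM with DMSO. No gene shown has overlapping groups, as for 82.4% of all genes tested.

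Secretory Rab genes included RAB27B and, among the falls, RAB44, RAB37 and RAB3D. Of 12 tested, 8 rose, 3 fell and 1 was not called, with a median log2 fold change of 0.70. The share called was 91.7%, against 82.3% of all genes. None of the 12 had overlapping groups, which also held for 82.4% of all genes. RAB8B, a Rab of exocytosis from the Golgi and recycling endosomes to the plasma membrane, had 269, 263 and 269 CPM with mebendazole, against 67.0, 65.3 and 65.7 CPM with DMSO. Each mebendazole library was about 4 times any DMSO library, and the log2 fold change was 2.02 ± 0.01 (edgeR, adjusted p = 7.2e-51). RAB13, a Rab of cell junctions and of surface delivery, had 183, 179 and 188 CPM with mebendazole, against 55.7, 57.3 and 59.8 CPM with DMSO, again with no overlap (log2 fold change 1.67 ± 0.02, edgeR, adjusted p = 2.6e-44).

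RAB8A, which acts with RAB8B and also in cilium formation, moved little. It had 92.8, 89.8 and 90.8 CPM with mebendazole, against 80.4, 83.7 and 86.1 CPM with DMSO (log2 fold change 0.13 ± 0.04, edgeR, adjusted p = 0.0074). This small rise is not firm, since it turned to -0.12 with library totals and missed the threshold without pair 1 (adjusted p = 0.0997). RAB10, a Rab of surface delivery of glucose transporters and receptors, was higher at 319 ± 10.5 CPM with mebendazole and 206 ± 3.80 CPM with DMSO (log2 fold change 0.63). RAB12, a Rab of receptor degradation and lysosome damage, was higher at 32.6 ± 2.73 CPM with mebendazole against 18.1 ± 1.35 CPM with DMSO (0.85). Every Rab gene was put in a single role group, and RAB12 was counted as secretory although it is described by other roles. The group medians and sums rest on these assignments.

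The RAB3 genes, which control docking of regulated secretory granules, did not move together. RAB3D had 13.6, 13.5 and 12.6 CPM with mebendazole, against 63.8, 58.5 and 59.2 CPM with DMSO. All mebendazole libraries were far below all DMSO libraries, and the log2 fold change was -2.19 ± 0.04 (edgeR, adjusted p = 1.3e-39). RAB3B, present at low counts, had 4.11, 4.83 and 3.62 CPM with mebendazole, against 1.64, 1.22 and 1.47 CPM with DMSO. Its 167 reads with mebendazole against 68 with DMSO gave a log2 fold change of 1.52 ± 0.22 (edgeR, adjusted p = 1.6e-09). RAB3A had 2.05, 2.22 and 2.36 CPM with mebendazole, against 3.55, 2.71 and 2.47 CPM with DMSO, and was not called although the groups did not overlap (log2 fold change -0.40 ± 0.21, edgeR, adjusted p = 0.0763). It was called lower without pair 3 (-0.55, adjusted p = 0.0475) and with library totals (-0.64, adjusted p = 0.00442).

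RAB44 gave the largest fall among well-covered Rab genes. It encodes an atypical large Rab with EF-hand domains, known from immune cells and from mast cell granule release in mice. It had 7.44, 11.7 and 10.2 CPM with mebendazole, against 93.4, 93.0 and 91.2 CPM with DMSO, a log2 fold change of -3.25 ± 0.20 (edgeR, adjusted p = 9.5e-48), or 9.52-fold lower. The DMSO libraries were close to each other, the mebendazole libraries more scattered, and the groups were far apart. RAB37, a Rab of secretory granules in mast cells and macrophages, had 0.71, 0.69 and 0.87 CPM with mebendazole, against 6.18, 6.64 and 6.94 CPM with DMSO. It rests on 30 reads with mebendazole against 310 with DMSO, which put it 8.77-fold lower (exact 95% counting interval 6.02 to 13.2), and the fit called it lower (edgeR, adjusted p = 7.8e-21). RAB3C had 10 reads with mebendazole and 33 with DMSO and RAB26 had 6 with mebendazole and 9 with DMSO, too few for the test, as was RAB34.

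Early and recycling endosome Rab genes rose more often than they fell. Of 14 tested, 10 rose, 1 fell and 3 were not called, with a median log2 fold change of 0.63. That made 78.6% called, against 82.3% of all genes. By direction, 71.4% were higher and 7.14% lower, where 40.6% of all genes were higher and 41.7% lower. RAB20, a Rab of phagosome maturation, had 79.1, 73.2 and 82.4 CPM with mebendazole, against 12.6, 14.2 and 13.5 CPM with DMSO. The lowest mebendazole library was above 5 times the highest DMSO library, and the log2 fold change was 2.55 ± 0.09 (edgeR, adjusted p = 1.5e-44).

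The RAB5 genes encode the Rab proteins that drive early endosome fusion, and all of them rose, by unequal amounts. RAB5B had 268, 270.2 and 271 CPM with mebendazole, against 118, 112 and 118 CPM with DMSO (log2 fold change 1.22 ± 0.03, edgeR, adjusted p = 6.1e-40). RAB5A had 104, 103 and 102 CPM with mebendazole, against 48.0, 50.2 and 48.4 CPM with DMSO (1.08 ± 0.02, edgeR, adjusted p = 5.6e-31). RAB5C had 236, 233 and 230 CPM with mebendazole, against 204, 182 and 192 CPM with DMSO (0.27 ± 0.04, edgeR, adjusted p = 4.1e-10). None of the 3 genes overlapped between groups, as was true of 82.4% of all genes. In the mebendazole libraries RAB5B had 1.14 to 1.18 times the reads of RAB5C, against 0.581 to 0.613 times in the DMSO libraries. The call of RAB5C was lost with library totals.

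RAB22A and RAB31 (endosome to Golgi and recycling traffic) rose alike, with 92.8 ± 2.80 CPM with mebendazole against 49.8 ± 2.44 CPM with DMSO for RAB22A and 450.5 ± 17.6 CPM with mebendazole against 254 ± 3.37 CPM with DMSO for RAB31 (log2 fold changes 0.90 and 0.82). RAB21, a Rab of integrin uptake, was higher at 98.2 ± 3.14 CPM with mebendazole against 56.3 ± 2.88 CPM with DMSO (0.80). RAB35, a Rab of fast recycling, was higher at 107 ± 3.75 CPM with mebendazole against 65.6 ± 0.694 CPM with DMSO (0.70), and RAB14, between the Golgi and endosomes, at 228 ± 4.45 CPM with mebendazole against 177 ± 2.58 CPM with DMSO (0.36). RAB15, an endosomal Rab described mainly in neurons, fell to 9.42 ± 0.959 CPM with mebendazole, against 14.2 ± 2.01 CPM with DMSO (-0.59).

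The recycling endosome Rab genes RAB4A and RAB11A were not called. RAB11A had 107, 94.7 and 99.6 CPM with mebendazole, against 101, 104 and 105 CPM with DMSO, and its groups overlapped (log2 fold change -0.04 ± 0.06, edgeR, adjusted p = 0.413). RAB4A had 100.3, 91.7 and 97.7 CPM with mebendazole, against 92.4, 90.2 and 91.8 CPM with DMSO (0.08 ± 0.03, edgeR, adjusted p = 0.094). With library totals RAB4A was called lower at -0.17 (adjusted p = 5.1e-04), so its direction depends on the scaling, and it was called higher with RLE size factors (0.10, adjusted p = 0.0343) and without pair 2 (0.12, adjusted p = 0.0324). In GENCODE v29, 21.3% of RAB4A's exon bases are shared with SPHAR. RAB11A was called lower with library totals (-0.28, adjusted p = 6.6e-08). RAB11B was higher at 76.3 ± 0.851 CPM with mebendazole against 51.5 ± 2.50 CPM with DMSO (0.57). In the same annotation, 12.2% of its exon bases are shared with RAB11B-AS1, which was higher too (4.99 ± 0.348 CPM with mebendazole against 2.09 ± 0.335 CPM with DMSO), and the library kit does not mark strand, so reads of the overlap cannot be told apart. RAB17, an epithelial Rab, had 37 reads with mebendazole against 52 with DMSO and was not called (-0.24 ± 0.15, edgeR, adjusted p = 0.493).

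The 6 tested late endosome and lysosome Rab genes were all called, where 82.3% of all genes were, with 4 higher and 2 lower and a median log2 fold change of 0.38. RAB7A, which directs late endosomes and lysosomes onto dynein through RILP, had 446, 428 and 451 CPM with mebendazole, against 310.2, 302 and 315.5 CPM with DMSO. The rise was uniform over the pairs, at 0.51 ± 0.01 (edgeR, adjusted p = 6.1e-23), and RAB7A had the highest level per kb of exon of all Rab genes in both groups (197 CPM per kb with mebendazole against 138 CPM per kb with DMSO). RAB7L1, an older name of RAB29, a Rab of the Golgi and of stressed lysosomes, was slightly higher at 79.3 ± 4.11 CPM with mebendazole against 66.6 ± 1.02 CPM with DMSO (0.25), a call that library totals removed.

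RAB9A and RAB9B act in retrieval of mannose 6-phosphate receptors to the Golgi. RAB9A rose, with 28.9, 24.9 and 26.99 CPM with mebendazole and 18.5, 20.1 and 17.9 CPM with DMSO (log2 fold change 0.52 ± 0.11, edgeR, adjusted p = 5.8e-09). RAB9B fell, with 2.20, 2.07 and 2.44 CPM with mebendazole and 5.32, 4.81 and 5.17 CPM with DMSO (-1.19 ± 0.06, edgeR, adjusted p = 1.5e-08). RAB32 and RAB38, which build melanosomes and other lysosome-related organelles, also differed in direction. RAB38 rose, with 8.22, 7.06 and 7.004 CPM with mebendazole and 3.15, 2.31 and 2.17 CPM with DMSO (1.54 ± 0.09, edgeR, adjusted p = 6.0e-14). RAB32 fell, with 66.0, 64.2 and 64.8 CPM with mebendazole and 84.5, 86.9 and 90.8 CPM with DMSO (-0.43 ± 0.04, edgeR, adjusted p = 1.4e-12). None of these 4 genes had overlapping groups, as was true of 82.4% of all genes.

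Of 13 tested endoplasmic reticulum and Golgi Rab genes, 8 rose, 3 fell and 2 were not called, with a median log2 fold change of 0.38. The share called was 84.6%, near the 82.3% of all genes. RAB1A and RAB1B, which control transport out of the endoplasmic reticulum, were higher by 0.32 and 0.38, and RAB2A by 0.34. RAB2B, a Golgi relative of RAB2A, had 27.3, 33.98 and 29.9 CPM with mebendazole, against 13.6, 12 and 15.2 CPM with DMSO (1.15 ± 0.17, edgeR, adjusted p = 1.3e-20), a wider gap than that of RAB2A at 193 ± 14.6 CPM with mebendazole against 153 ± 0.889 CPM with DMSO.

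RAB6A, the retrograde Golgi Rab, was higher at 144 ± 9.11 CPM with mebendazole against 84.4 ± 1.59 CPM with DMSO (0.77), while RAB6B, its form best known in neurons, had 4.89, 3.91 and 5.98 CPM with mebendazole, against 6.24, 5.22 and 4.70 CPM with DMSO, and was not called (-0.13 ± 0.24, edgeR, adjusted p = 0.436). With library totals RAB6B was called lower (-0.37, adjusted p = 0.0215). RAB18, of lipid droplets and the endoplasmic reticulum, was higher at 63.5 ± 1.21 CPM with mebendazole against 38.2 ± 0.899 CPM with DMSO (0.73), and RAB33B, an autophagy and Golgi Rab, at 13.3 ± 0.794 CPM with mebendazole against 9.12 ± 0.143 CPM with DMSO (0.54). RAB33A was lower at 3.34 ± 0.248 CPM with mebendazole against 4.89 ± 0.551 CPM with DMSO (-0.55), a call that DESeq2 did not make (adjusted p = 0.0922). RAB39A, of phagosomes and autophagosomes, fell, with 4.11, 3.84 and 4.88 CPM with mebendazole and 9.86, 9.56 and 8.17 CPM with DMSO (-1.10 ± 0.18, edgeR, adjusted p = 5.1e-11). The role list counts RAB39A with the endoplasmic reticulum and Golgi genes all the same.

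The remaining Golgi members were measured poorly. RAB36 had 3 reads with mebendazole and 52 with DMSO, which put it 14.7-fold lower with an exact 95% counting interval of 4.76 to 73.6 (edgeR, adjusted p = 7.3e-08). Its fitted log2 fold change of -3.76 was -3.17 without pair 2 and -4.89 without pair 3, so single pairs move its size. RAB43 had 75 reads with mebendazole against 46 with DMSO (log2 fold change 0.93 ± 0.14, edgeR, adjusted p = 0.00202), but DESeq2 did not call it (adjusted p = 0.0713), and 84.5% of its exon bases in GENCODE v29 belong to the readthrough ISY1-RAB43 as well. RAB30 had 31 reads with mebendazole against 28 with DMSO and was not called (0.41 ± 0.40, edgeR, adjusted p = 0.338). RAB39B was not tested, with 22 reads with mebendazole and 3 with DMSO, a ratio of 8.64 (exact 95% counting interval 2.60 to 45.1). RAB41 (10 reads in each group), RAB42 (4 reads with mebendazole against 10 with DMSO) and RAB6C (2 with mebendazole against 3 with DMSO) were not tested.

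The last group held Rab genes of cilia, autophagy and cullin ligases and was the only role group with more falls than rises, at 2 higher and 3 lower of 5 and a median of -0.37. All 5 were called, where 82.3% of all genes were. RAB23, a ciliary Rab that restrains Hedgehog signalling, had 39.3, 36.1 and 38.6 CPM with mebendazole, against 17.9, 15.5 and 15.9 CPM with DMSO (1.21 ± 0.04, edgeR, adjusted p = 8.3e-25), with 57.7% of its exon bases shared with BAG2. RAB40B, which joins a cullin ubiquitin ligase through its SOCS box, had 4.39, 4.30 and 3.54 CPM with mebendazole, against 10.5, 11.9 and 12.1 CPM with DMSO (-1.49 ± 0.15, edgeR, adjusted p = 1.2e-16). For both genes the groups did not overlap, as for 82.4% of all genes.

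RAB40C, of the same family, was lower at 22.8 ± 1.18 CPM with mebendazole against 30.9 ± 0.574 CPM with DMSO (-0.44), and RAB24, an atypical Rab of autophagy, at 56.1 ± 3.04 CPM with mebendazole against 72.4 ± 5.24 CPM with DMSO (-0.37). RAB28, found in cilia, was higher at 29.95 ± 1.02 CPM with mebendazole against 24.3 ± 2.16 CPM with DMSO (0.30), a call that library totals removed. RAB40A had 8 reads with mebendazole against 25 with DMSO and was not tested, nor was RAB40AL. RAB25 (1 read with mebendazole against 6 with DMSO) and RAB4B (1 with mebendazole against 0 with DMSO) were not tested either, and RAB4B shares 65.4% of its exon bases with MIA-RAB4B and 49.5% with RAB4B-EGLN2.

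Close relatives often moved by different amounts. Of 21 listed pairs, 18 had both genes tested and 14 had both called, of which 10 pairs had both genes higher, 1 both lower (RAB40B and RAB40C) and 3 opposite calls (RAB9A and RAB9B, RAB32 and RAB38, RAB33A and RAB33B). In the other 4 pairs 1 gene was called. These pair counts have to be read against the 82.3% of all genes called. Of the tested Rab genes 88% were called and 64% were higher. Pairs of other genes were not counted, so no share of pairs stands beside the tally. The tally depends on the scaling: with library totals 5 pairs had both genes higher, 2 both lower, 9 opposite calls and 2 only 1 gene called. RAB8A, RAB3A and the RAB5 genes each stand in more than 1 pair, so the pairs are not independent counts. RAB8A was called lower with library totals (-0.12), which alters every pair that holds it. Coding identity within the 18 pairs ran from 66.9% to 79.7%. The RAB8A to RAB8B count ratio was 0.337 to 0.345 over the mebendazole libraries, against 1.199 to 1.31 over the DMSO libraries, and the RAB8A to RAB13 ratio was 0.483 to 0.506 with mebendazole, against 1.44 to 1.46 with DMSO. For RAB9A to RAB9B it was 11.1 to 13.2 with mebendazole, against 3.45 to 4.18 with DMSO, and for RAB32 to RAB38 it was 8.03 to 9.25 with mebendazole, against 26.8 to 41.8 with DMSO. The RAB1A to RAB1B ratio was close in both groups, at 1.15 to 1.18 with mebendazole against 1.13 to 1.28 with DMSO, as was RAB22A to RAB31, at 0.192 to 0.220 with mebendazole against 0.184 to 0.208 with DMSO.

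**Figure D3:**
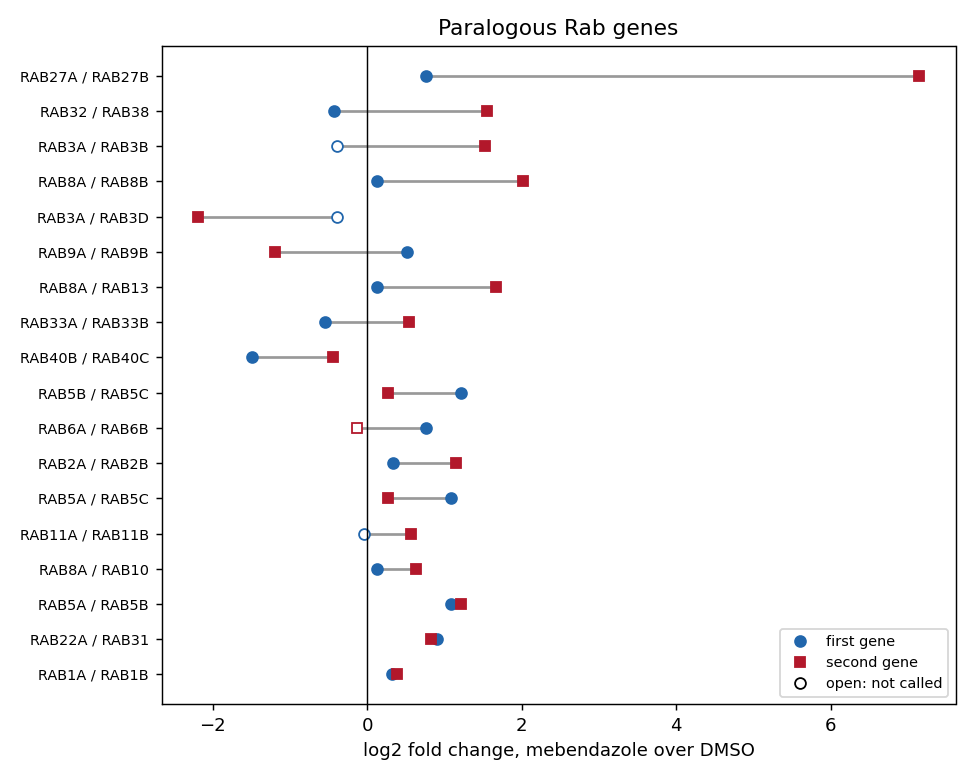
Log2 fold changes, mebendazole over DMSO, of both genes of each tested pair of related Rab genes, joined by a line. Circles are the first gene named, squares the second, and open symbols genes not called. RAB27A and RAB27B lie 6.38 apart, and RAB1A and RAB1B 0.06 apart.

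Summed over all 62 genes, Rab transcripts reached 4959, 4780 and 4898 CPM in the mebendazole libraries, against 3223, 3153 and 3229 CPM in the DMSO libraries, a ratio of means of 1.52. RAB27B carried only part of this, since the sum without it was 4645 ± 99.9 CPM with mebendazole against 3200 ± 42.2 CPM with DMSO, a ratio of 1.45. As a share of all reads, with no TMM scaling, Rab genes took 0.448% ± 0.00442 with mebendazole and 0.348% ± 0.00145 with DMSO. By role, the ratio was 1.91 for secretory, 1.57 for early and recycling endosome, 1.35 for endoplasmic reticulum and Golgi, 1.27 for late endosome and lysosome Rab genes, and 0.968 for the Rab genes of cilia, autophagy and cullin ligases. The ARF family of related small GTPases had a ratio of 1.49, so a higher sum was not confined to Rab genes. The ratios by role and for the ARF family use TMM scaling, and their unscaled shares were not computed. TMM factors were 0.913, 0.928 and 0.915 with mebendazole against 1.08, 1.10 and 1.08 with DMSO. This scaling raises mebendazole over DMSO relative to unscaled shares. Ranked by CPM per kb of exon, RAB7A and RAB5C were first and second among the 62 in both groups. RAB13 was rank 3 with mebendazole and rank 11 with DMSO (115 CPM per kb with mebendazole against 36.2 CPM per kb with DMSO), RAB20 rank 11 with mebendazole and 28 with DMSO, RAB27B rank 21 with mebendazole and 47 with DMSO, and RAB44 rank 40 with mebendazole and 17 with DMSO.

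The proteins that act on Rab GTPases were described from lists, with the same test. The share called was near the 82.3% of all genes in each list. It was 87.2% for exchange factors, 81.6% for GTPase activating proteins, 85.7% for prenylation, GDI and escort, and 82.7% for effectors. Of 47 tested exchange factors, 23 rose, 18 fell and 6 were not called, with a median log2 fold change of 0.10. With library totals 16 were higher and 23 lower, so which direction led depends on the scaling. DENND5A, a RAB6-binding protein with exchange activity for RAB39, had 368, 361 and 373 CPM with mebendazole, against 63.1, 56.9 and 62.8 CPM with DMSO (2.59, edgeR, adjusted p = 1.8e-57). RABGEF1 and RIN3, both exchange factors for RAB5 proteins, rose by 2.18 and 1.78, at 74.7 ± 1.71 CPM with mebendazole against 16.5 ± 1.59 CPM with DMSO and 126 ± 4.76 CPM with mebendazole against 36.9 ± 1.35 CPM with DMSO. MADD, which acts on RAB3 and RAB27 proteins, rose by 1.10 (187 ± 1.62 CPM with mebendazole against 87.3 ± 3.43 CPM with DMSO).

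Of 38 tested GTPase activating proteins, 21 rose, 10 fell and 7 were not called, with a median of 0.18. TBC1D14, a TBC-domain protein tied to RAB11 and autophagy, fell, at 24.97 ± 1.05 CPM with mebendazole and 84.7 ± 3.75 CPM with DMSO (-1.76, edgeR, adjusted p = 2.0e-38). The other members with the smallest p were higher, TBC1D8 by 1.11, TBC1D17 by 1.40 and SGSM2 by 1.12. With library totals this list turned to 15 higher and 18 lower, so its balance of directions depends on the scaling.

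The 14 tested genes for Rab prenylation, GDP dissociation inhibitors and escort factors split into 9 higher, 3 lower and 2 not called, with a median of 0.49. GDI2, which extracts inactive Rab proteins from membranes, was lower at 207 ± 11.8 CPM with mebendazole against 243 ± 3.38 CPM with DMSO (-0.23, edgeR, adjusted p = 4.1e-08). YIPF6, YIPF4 and YIPF3, membrane proteins of the Golgi that can bind Rab proteins, were higher by 0.77, 0.74 and 0.55. The escort protein gene CHM was higher by 0.74. GDI2 and CHM were picked after their values were seen.

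Of 52 tested effectors, 31 rose, 12 fell and 9 were not called, with a median of 0.41. SYTL3, a synaptotagmin-like effector of RAB27 proteins, had 59.7, 56.0 and 55.5 CPM with mebendazole, against 1.71, 1.63 and 1.82 CPM with DMSO. Like RAB27B it was nearly silent in all DMSO libraries, and its log2 fold change was 5.04 (edgeR, adjusted p = 2.6e-50). Among the other RAB27 effectors, SYTL1 rose by 1.41 and SYTL4 by 1.34, UNC13D fell by 0.34, and SYTL2 had 54 reads with mebendazole against 63 with DMSO and was not called (0.02, edgeR, adjusted p = 0.953). MLPH, MYRIP and SYTL5 had too few reads for the test. These further RAB27 effectors were chosen after their values were seen.

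MICALL1, an effector of RAB8 and RAB35 on recycling tubules, rose by 2.38 (134 ± 4.83 CPM with mebendazole against 25.8 ± 2.78 CPM with DMSO), and PLEKHM1, a RAB7 effector on lysosomes, by 1.79 (117 ± 1.32 CPM with mebendazole against 33.9 ± 2.85 CPM with DMSO). OSBPL1A, a sterol-binding RAB7 effector that controls late endosome movement, fell by 2.33, at 12.5 ± 0.657 CPM with mebendazole and 62.9 ± 1.49 CPM with DMSO. For comparison, the list of Rab-like genes, to which RAN was added, had 0 higher, 6 lower and 1 not called of 7. Its median was -0.47, with RAN at 296 ± 4.05 CPM with mebendazole against 436 ± 8.16 CPM with DMSO. The share called in this list was 85.7%, near the 82.3% of all genes. The ARF family had 14 higher, 8 lower and 2 not called of 24, with a median of 0.44. That made 91.7% called, against 82.3% of all genes.

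**Figure D4:**
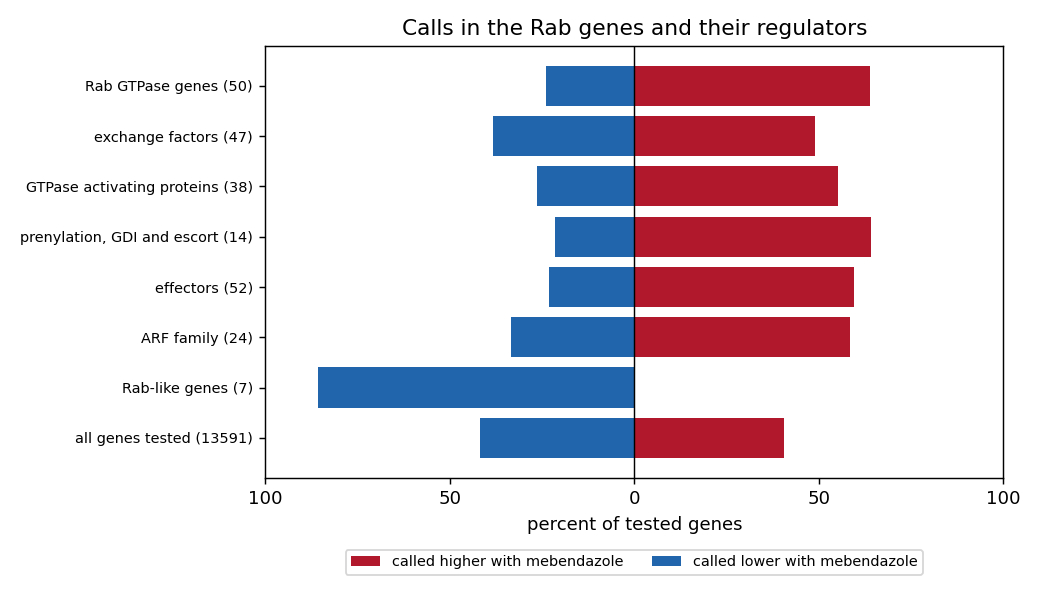
Share of tested genes called higher (red) and lower (blue) with mebendazole in the Rab genes, their regulators and effectors, the comparison families and all genes tested. Of the Rab genes 64% were higher and 24% lower, and of all genes 40.6% were higher and 41.7% lower.

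Promoter sequence was available from RefSeq (GRCh38.p14) for 39 of the 50 tested Rab genes, as the 250 bases before and 50 after the start, and 3 motifs were searched on both strands. The AP-1 motif TGANTCA was in 2 of the 39 (RAB5B and RAB3B) and in 7.71% of all 35116 promoters. The CRE motif TGACGTCA was in 0 of the 39 and in 1.85% of all promoters. The E-box CACGTG, read by MYC, USF and MiT/TFE factors, was in 6 of the 39 (RAB24, RAB5A, RAB31, RAB21, RAB4A and RAB7L1) and in 7.26% of all promoters. These are matches of letters and not sites shown to be bound. The 250 bases before the start of RAB27B, the largest rise, and of RAB5A and RAB5B, a pair of relatives that rose by like amounts, are shown on the plus strand with matches in capitals.
RAB27B at chr18:54717607-54717856: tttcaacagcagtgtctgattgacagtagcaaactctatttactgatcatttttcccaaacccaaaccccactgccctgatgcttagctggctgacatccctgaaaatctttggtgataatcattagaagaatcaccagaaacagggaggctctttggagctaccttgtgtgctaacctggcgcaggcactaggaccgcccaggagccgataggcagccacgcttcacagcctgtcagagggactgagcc
RAB5A at chr3:19946847-19947096: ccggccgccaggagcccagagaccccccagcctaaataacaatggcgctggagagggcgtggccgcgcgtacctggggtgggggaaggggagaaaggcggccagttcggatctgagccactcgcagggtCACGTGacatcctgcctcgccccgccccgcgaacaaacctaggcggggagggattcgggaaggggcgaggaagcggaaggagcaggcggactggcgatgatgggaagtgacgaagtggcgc
RAB5B at chr12:55973699-55973948: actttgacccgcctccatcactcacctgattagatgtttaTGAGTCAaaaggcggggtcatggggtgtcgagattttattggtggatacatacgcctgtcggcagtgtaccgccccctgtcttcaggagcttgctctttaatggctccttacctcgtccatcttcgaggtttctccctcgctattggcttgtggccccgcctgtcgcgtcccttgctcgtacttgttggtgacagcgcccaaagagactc
The RAB5A match is an E-box 121 to 116 bases upstream of the start and the RAB5B match an AP-1 motif 210 to 204 bases upstream, while the RAB27B stretch holds none of the 3 motifs. Its GC content was 50.4%, against 67.6% for RAB5A, 54% for RAB5B and a median of 58% over all promoters.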

How the data were processed

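The authors deposited unnormalised read counts by gene symbol, with 1 column for each of the 6 libraries. STAR, bedtools, HTSeq, DESeq2 and hg19 are named per the submitters' processing notes, with their roles, the annotation and the strand setting not given in the sources used here. Per the labels' protocols, total RNA went into Illumina TruSeq RNA v2 libraries, a kit that keeps no strand. From the counts, edgeR 4.0.16 in R 4.3.3 filtered genes (filterByExpr), scaled by TMM and fitted group and pair with a two-sided quasi-likelihood F test. The spread is pooled over genes (prior degrees of freedom 61 against 2 residual), so very small p-values rest mostly on that pool. SE over pairs used log2 CPM with a prior count of 0.5. Named genes were the called members with the 12 largest rises and falls at a mean CPM of 5 or more (only 8 falls qualified), those not called, tested relatives, and the 4 members per list with the smallest p, of which 1 is not reported here; other members are given by role. Members and lists were chosen with earlier results of these data known. Identity was computed on GENCODE v29 coding sequences with Biopython 1.88, in place of protein identity. Exon overlaps and lengths come from the same annotation, another build than hg19. The alternatives were 10, DESeq2 1.42.0 among them. The table had 0 columns of no sample.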

Additional observations from a re-analysis of the deposited data

How the results depend on the processing

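Of the 50 tested Rab genes, 27 kept sign and call in those of the 10 alternatives that tested them and 23 changed in at least 1. Most changes came from the test against a 1.5-fold change, a stricter question, under which 19 genes lost their call. With library totals 2 genes reversed, 3 gained a call and 3 lost it. DESeq2 lost 2 calls, RLE size factors gained 1, and leaving out a pair changed 1 gene each time. A test against a 1.5-fold change called 18 Rab genes higher and 7 lower, 2896 and 2878 of all genes, 12 and 6 exchange factors, 13 GTPase activating proteins higher, 4 and 0 genes of prenylation, GDI and escort, and 16 and 6 effectors. At a mean CPM of 10 or more, only 37 Rab genes were tested, of which 29 were higher and 6 lower, and 10 changed by 2-fold or more. This filter left out low-count members such as RAB36 and RAB37, which were therefore not open to a call. Library totals called 18 GTPase activating proteins lower and turned RAB4A to -0.17 and RAB8A to -0.12; the cause of these changes was not tested. Higher and lower Rab genes numbered 31 and 11 with DESeq2, and without 1 pair in turn 31 to 33 and 12 to 13. The log2 fold change of RAB27B stayed between 6.90 and 7.20.

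With no replicate block, 32 Rab genes were higher and 12 lower, and 5480 and 5638 of all genes. Deviations of same-numbered samples correlated at -0.00128, 0.0471 and 0.0156. Mebendazole 1 correlated best with DMSO 3, while mebendazole 2 and mebendazole 3 did so with DMSO 2 and DMSO 3. The same-number correlations were small, so the deviations gave little sign of pairing. Depth limits the 11 members with reads that were not tested.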
